A study of Homo sapiens with 23 samples.

Results

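The interferon response genes examined here are a list of 42 genes that type I and type II interferons are known to induce, followed across 23 arrays of human lung fibroblasts. Members were the genes on the list with an annotated probe whose detection p-value was under 0.05 on at least 3 arrays. Of the 42, 41 had an annotated probe (STAT2 had none), MX2 and RSAD2 were detected on fewer than 3 arrays, and 39 were tested among 12994 genes in all. The cells were CCL-75, an established line of lung fibroblasts, and their RNA was hybridised to Illumina bead arrays of 1 colour. Pre_only cells (3 arrays) received TNF and IL-17 for 72 hours. Pre_IL13 cells (4 arrays) received that pretreatment and then IL-13 for 20 hours. Pre_Ab_only cells (4 arrays) received the pretreatment with a neutralising antibody to IL-13Ra2 in its last 1 hour, and Pre_Ab_IL13 cells (4 arrays) received pretreatment, antibody and then IL-13. IL13 cells (4 arrays) received IL-13 for 20 hours without pretreatment, and Control cells (4 arrays) received none of these. Both passage 8 and passage 6 cells were used. Each passage had an experiment A and an experiment B, so that P8-A is experiment A of passage 8. Pre_only holds 1 array of passage 8, P8-B. All arrays of a passage share a beadchip of their own, so an effect of passage cannot be told apart from an effect of the chip. A and B are described both as independent experiments and as technical replicates, so p-values measure the spread between these arrays, which may be partly technical.

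Cells that sense virus or cytokines release interferons, which bind receptors coupled to the kinases JAK1, JAK2 and TYK2. Type I interferon then acts through a complex that contains IRF9 and binds the interferon-stimulated response element (ISRE), and interferon-gamma acts at the gamma-activated site (GAS). Many of the induced genes block steps of virus replication, while others present antigen, attract lymphocytes or shut the response down. TNF activates NF-kB, which is known to act directly at some of these genes, among them CXCL10 and IRF1.

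Promoter sequences from RefSeq (GRCh38.p14) are shown for the 6 genes that stand for the different behaviours described in the results. Each runs 5′ to 3′ on the gene's own strand from 250 bases before to 50 after a transcription start. The windows are chr10:89392373-89392672 (plus strand) for IFIT1, chr14:94110486-94110785 (plus) for IFI27, chr19:17405581-17405880 (minus) for BST2, chr1:27672143-27672442 (minus) for IFI6, chr4:76023448-76023747 (minus) for CXCL10 and chr5:132490724-132491023 (minus) for IRF1. Capitals mark the letters GAAANNGAAA or TTTCNNTTTC, the core of an ISRE on either strand, and matches to the NF-kB motif. The GAS letters TTCNNNGAA were searched too and are left in lower case, except where a base also belongs to a capitalised match.
IFIT1: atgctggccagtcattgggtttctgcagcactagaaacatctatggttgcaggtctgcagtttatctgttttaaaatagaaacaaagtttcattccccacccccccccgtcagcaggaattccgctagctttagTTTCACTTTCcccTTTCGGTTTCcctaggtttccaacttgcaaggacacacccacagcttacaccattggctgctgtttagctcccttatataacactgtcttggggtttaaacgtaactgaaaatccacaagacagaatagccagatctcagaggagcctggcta
IFI27: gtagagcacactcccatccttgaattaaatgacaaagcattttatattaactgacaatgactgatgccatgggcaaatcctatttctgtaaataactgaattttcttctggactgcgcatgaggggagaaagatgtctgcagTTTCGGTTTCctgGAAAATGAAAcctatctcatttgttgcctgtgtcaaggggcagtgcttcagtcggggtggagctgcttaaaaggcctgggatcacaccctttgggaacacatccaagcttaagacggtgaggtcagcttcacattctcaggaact
BST2: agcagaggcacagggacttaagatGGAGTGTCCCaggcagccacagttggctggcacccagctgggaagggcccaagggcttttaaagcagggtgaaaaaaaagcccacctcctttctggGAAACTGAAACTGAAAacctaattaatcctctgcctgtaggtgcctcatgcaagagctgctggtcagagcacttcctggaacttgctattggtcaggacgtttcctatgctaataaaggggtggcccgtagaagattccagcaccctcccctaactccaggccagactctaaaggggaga
IFI6: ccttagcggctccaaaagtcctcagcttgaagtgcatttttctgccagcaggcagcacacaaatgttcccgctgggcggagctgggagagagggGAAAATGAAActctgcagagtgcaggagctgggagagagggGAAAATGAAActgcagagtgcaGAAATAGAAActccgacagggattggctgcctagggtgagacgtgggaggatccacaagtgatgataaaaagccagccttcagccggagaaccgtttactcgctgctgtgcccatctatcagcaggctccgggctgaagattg
CXCL10: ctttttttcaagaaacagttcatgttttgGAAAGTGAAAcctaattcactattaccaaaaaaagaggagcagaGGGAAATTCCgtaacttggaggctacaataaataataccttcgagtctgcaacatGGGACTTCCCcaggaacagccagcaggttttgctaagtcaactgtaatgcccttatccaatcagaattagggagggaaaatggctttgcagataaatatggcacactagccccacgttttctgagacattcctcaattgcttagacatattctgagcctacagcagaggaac
IRF1: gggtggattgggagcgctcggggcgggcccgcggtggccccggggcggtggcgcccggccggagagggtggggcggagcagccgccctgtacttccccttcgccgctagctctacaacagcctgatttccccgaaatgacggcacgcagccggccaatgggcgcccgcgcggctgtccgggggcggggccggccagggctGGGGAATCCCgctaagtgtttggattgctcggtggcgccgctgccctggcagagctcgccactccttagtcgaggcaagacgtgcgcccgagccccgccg
IFIT1 holds 2 ISRE matches in the window, whose nearer ends lie 107 and 94 bases before the start, and IFI27 holds 2, at 99 and 86. BST2 holds 2 overlapping ISRE matches and, on the opposite strand, 1 NF-kB match. IFI6 holds 3 ISRE matches and no NF-kB match. CXCL10 holds 1 ISRE match and NF-kB matches at 2 places, while IRF1 holds no ISRE match and an NF-kB match 41 bases before the start. IRF1 also holds 1 match to the GAS letters, 116 bases before the start. BST2 holds 2 GAS matches and IFI27 holds 1, and the windows of IFIT1, IFI6 and CXCL10 hold none. Of the 39 tested genes, 31 had a promoter in the table. ISRE letters occurred in 22 of them (71.0%), against 4.38% of all 27305 genes in the table. GAS letters occurred in 11 of the 31 (35.5%), against 9.38% of all genes, and the NF-kB motif in 9 (29.0%), against 13.3%. A match is a description of the letters and not evidence that a factor binds there, and some genes have several start windows, of which any counted.

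The arrays detected 17818 to 20167 probes each, with median intensities of 93.4 to 106. IL13RA2, the decoy receptor that the antibody binds, was 3.85 ± 0.15 higher on the log2 scale in Pre_only than in Control (SE, adjusted p = 1.43e-18, limma). All 10 fibroblast markers looked for were detected on every array. In Pre_only against Control 4 of them rose and 1 fell, beside 12% and 12.8% of all genes. Of 13 leukocyte markers, 8 were tested, and 2 rose in Pre_only, CD14 (1.19 ± 0.12, adjusted p = 3.37e-09) and CD68 (1.10 ± 0.16, adjusted p = 2.16e-06). Their list averaged 5.97 to 6.09 in level on the Pre_only arrays and 5.75 to 5.996 on the Control arrays, and CSF1R, NCAM1 and LILRA4 were undetected on all Pre_only arrays. Of the epithelial markers KRT19 fell by 2.34, KRT18 was undetected in Pre_only and in Control, and among 2 endothelial markers TEK was 0.42 higher and VWF 0.54 lower. The part of these cell-type markers in the results below was not tested. In bulk samples, fewer cells of a type and less RNA per cell cannot be told apart.

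The comparison of Pre_only with Control asked how TNF and IL-17 over 72 hours bore on the interferon response genes of these fibroblasts. Most of them rose, and CXCL10, EPSTI1, IFI27, IFIT1 and MX1 were between 3.9-fold and 11.1-fold higher. The folds of CXCL10 and IFIT1 may not be exact, as 7 and 6 of the 8 arrays without pretreatment detected them. Of the 39 genes, 30 rose and 2 fell at an adjusted p under 0.05 (limma, Benjamini-Hochberg over all genes), where 12% of all genes rose and 12.8% fell. Their median log2 change was 0.84, against -0.01 for all genes, and 36 of 39 were above 0 against 48.5% of all genes. For 29 of the 39 every Pre_only array lay above every Control array, which held for 12.7% of all genes, and for 1 every array lay below, which held for 14%. Level here means log2 normalised intensity, a change is a difference of levels, and the error given with it is the standard error of the fit. A total of 8 genes were detected on fewer than 3 arrays outside the pretreated groups, so they entered the test mainly through the pretreated arrays, and 6 of them rose. Of the 31 other genes 24 rose and 2 fell, beside 12.3% that rose among the 11417 genes detected in the same way.

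**Figure D1:**
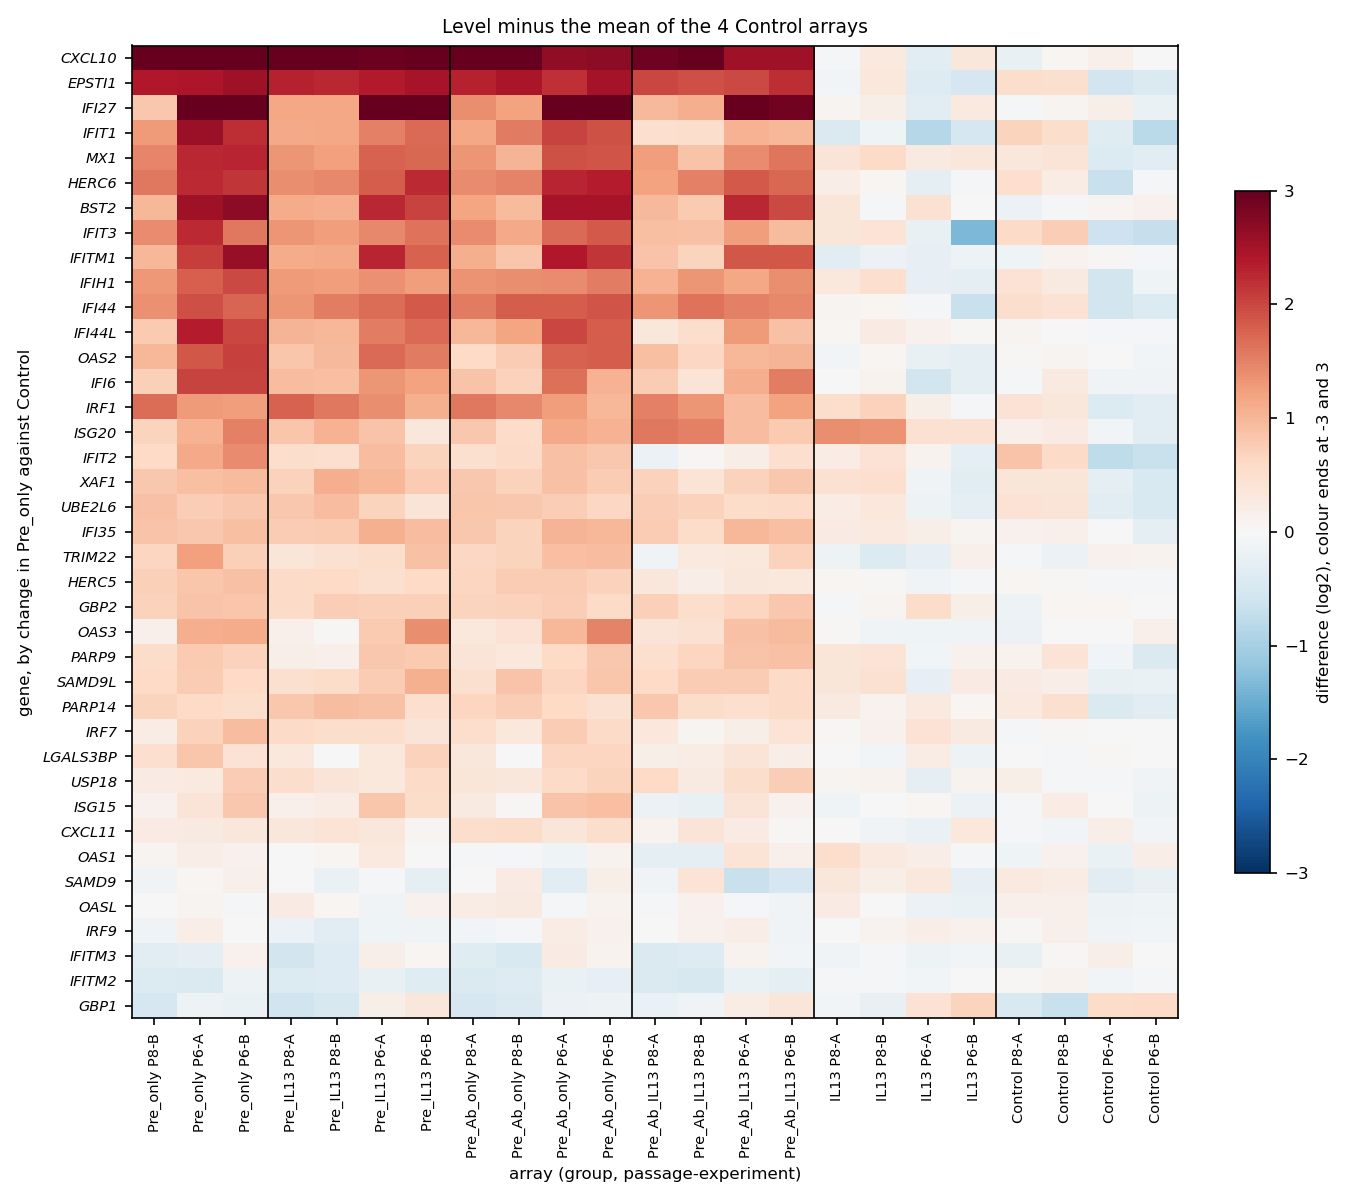
Level of each of the 39 genes (rows, ordered by the change in Pre_only against Control) on each of the 23 arrays (columns), minus the mean of the 4 Control arrays, on a log2 scale whose colours end at -3 and 3. The 15 pretreated arrays on the left are red for most rows, passage 6 arrays being darker than passage 8 arrays for IFI27, BST2 and IFITM1, and the 8 arrays on the right are pale.

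The IFIT proteins bind viral RNA and stop its translation. IFIT1 had a level of 6.54 on the passage 8 Pre_only array and 7.85 and 7.47 on the passage 6 arrays, against 5.91 and 5.78 (passage 8) and 4.89 and 4.43 (passage 6) on the Control arrays. All 3 Pre_only arrays were above all 4 Control arrays, and passage 6 held both the highest and the lowest values. The change was 2.01 ± 0.28 (adjusted p = 1.57e-06). Its size may not be exact, as 6 of the 8 arrays without pretreatment detected IFIT1. A second IFIT1 probe, detected on 5 arrays only, gave 0.11 ± 0.12 and was not called. IFIT3, which works with IFIT1, rose by 1.78 ± 0.31 (adjusted p = 3.97e-05), and its other 2 probes rose by 1.46 and 1.24. IFIT2 is the member of this family whose groups overlapped. Its level was 7.64 on the passage 8 Pre_only array and 8.19 and 8.45 on the passage 6 arrays, against 7.91 and 7.62 (passage 8) and 6.27 and 6.38 (passage 6) in Control. The passage 8 Control arrays reached the passage 8 Pre_only array, while the passage 6 Control arrays were far below theirs. The fitted change of 1.06 ± 0.27 (adjusted p = 0.00304) became -0.13 in passage 8 alone.

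Among the other antiviral effectors that act on RNA, the OAS enzymes make the messenger that activates RNase L. OAS2 was undetected on every Control array and was at least 2.84-fold higher in Pre_only (adjusted p = 4.13e-07). OAS3, also undetected in Control, was at least 1.45-fold higher (adjusted p = 0.00525), but its groups overlapped. The brighter OAS1 probe changed by 0.12 ± 0.15 (adjusted p = 0.635), and a dim second one, detected on 7 arrays, rose by 0.44 ± 0.14 (adjusted p = 0.029 over all probes). OASL was undetected in Pre_only and in Control. IFIH1, the cytosolic sensor MDA5, rose by 1.71 ± 0.19 (adjusted p = 2.12e-08). ISG20, an exonuclease, rose by 1.12 ± 0.22 (adjusted p = 0.000193). SAMD9L rose by 0.66 ± 0.15 (adjusted p = 0.00149), whereas its neighbour and relative SAMD9 gave 0.08 ± 0.17 (adjusted p = 0.786). In all, 8 of the 11 genes of this role rose and none fell, with a median change of 1.06.

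Genes that act on virus entry, assembly and budding divided within 1 family. MX1, a dynamin-like GTPase that traps viral nucleocapsids, had levels of 9.20 (passage 8), 10.00 and 10.03 (passage 6) in Pre_only, against 8.09 and 8.13 (passage 8) and 7.32 and 7.42 (passage 6) in Control. The groups did not overlap, and the gap was wider in passage 6. MX1 rose by 1.96 ± 0.21 (adjusted p = 1.01e-08). BST2, or tetherin, which holds budding virus at the cell surface, had levels of 5.43 (passage 8), 6.99 and 7.12 (passage 6) in Pre_only, against 4.26 and 4.41 (passage 8) and 4.52 and 4.56 (passage 6) in Control, where no array detected it. It was at least 3.68-fold higher (adjusted p = 9.86e-08). IFITM1, which blocks fusion of viruses at the plasma membrane, rose by 1.77 ± 0.23 (adjusted p = 3.18e-07). Its relative IFITM2, which acts in endosomes, fell by 0.35 ± 0.08 (adjusted p = 0.00233). IFITM3, also endosomal, changed by -0.21 ± 0.12 (adjusted p = 0.219). The IFITM genes are near-identical copies in part, so how well the probes separate them is uncertain. TRIM22, an antiviral ubiquitin ligase, rose by 0.82 ± 0.14 (adjusted p = 2.1e-05). In this role 4 of 6 tested genes rose and 1 fell, with a median change of 1.29.

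ISG15 is a ubiquitin-like protein that is attached to other proteins by a chain of enzymes. ISG15 itself had levels of 9.01 (passage 8), 9.27 and 9.69 (passage 6) in Pre_only, against 8.83 and 9.10 (passage 8) and 8.88 and 8.74 (passage 6) in Control. The groups overlapped through the Control array P8-B, and the change of 0.38 ± 0.15 was not called (adjusted p = 0.0658). Without Control P8-B or without Pre_Ab_only P8-B it was called. The 4 enzymes rose, which gave 4 of 5 genes in this role and a median change of 0.81. UBE2L6, the conjugating enzyme, rose by 0.87 ± 0.12 (adjusted p = 7.27e-07). HERC5, the ligase, was undetected in Control and at least 1.404-fold higher (adjusted p = 9.19e-08), and HERC6, the ligase of mouse cells, rose by 1.94 ± 0.23 (adjusted p = 1.04e-07). USP18, which removes ISG15 and restrains the type I receptor, rose by 0.43 ± 0.14 (adjusted p = 0.0211). The USP18 call ended without Control P6-A, Control P6-B or Pre_only P6-B. Only 2 of the 8 arrays without pretreatment detected USP18, so its change has no exact size. HERC6 was detected on 7 of these 8, so its size may not be exact either.

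Among the transcription factors, IRF1, which is induced by interferon-gamma and by NF-kB, had levels of 10.23 (passage 8), 9.84 and 9.80 (passage 6) in Pre_only, against 8.98 and 8.90 (passage 8) and 8.13 and 8.21 (passage 6) in Control. The groups were far apart, with passage 8 the higher in both. IRF1 rose by 1.48 ± 0.11 (adjusted p = 6.55e-12). IRF7, the amplifier of type I interferon production, rose by 0.58 ± 0.13 (adjusted p = 0.000926). IRF9, a DNA-binding part of the complex that acts at the ISRE, gave 0.02 ± 0.11 (adjusted p = 0.936), with a sign that depended on the setting.

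CXCL10, a chemokine that attracts activated T cells through CXCR3, showed the largest change of the 39. Its levels were 8.36 (passage 8), 8.18 and 8.19 (passage 6) in Pre_only, against 4.61 and 4.88 (passage 8) and 4.97 and 4.82 (passage 6) in Control. The 3 Pre_only arrays lay close together and far above the 4 Control arrays. The change was 3.47 ± 0.16, or 11.1-fold (adjusted p = 5.54e-17), and without background correction it was 1.71. The Control levels were low and 7 of the 8 arrays without pretreatment detected CXCL10, so the size of its change may not be exact. CXCL11, a second ligand of CXCR3, was undetected in Control and changed by 0.30 ± 0.12 (adjusted p = 0.0775), a call that was made without IL13 P6-B or without Control P6-A. The guanylate-binding proteins, GTPases that attack pathogen vacuoles and are induced by interferon-gamma, moved in opposite directions. GBP2 rose by 0.77 ± 0.10 (adjusted p = 5.77e-07). GBP1 fell by 0.39 ± 0.14 (adjusted p = 0.0346), with levels of 7.70 (passage 8), 8.07 and 8.02 (passage 6) in Pre_only, against 7.76 and 7.54 (passage 8) and 8.77 and 8.79 (passage 6) in Control. The Pre_only arrays lay below the Control arrays in passage 6 and among them in passage 8, where the change was 0.05. The call ended without Control P6-A, Control P6-B, Pre_only P6-A or Pre_only P6-B, and a second GBP1 probe gave -0.21 ± 0.19, not called.

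The 8 members of mixed or less known function all rose. EPSTI1, named for its induction by stromal contact in epithelial cells, rose by 2.50 ± 0.18 (adjusted p = 3.84e-12). IFI27, a mitochondrial protein widely used as a marker of the type I response, had levels of 7.20 (passage 8), 9.51 and 10.02 (passage 6) in Pre_only, against 6.34 and 6.48 (passage 8) and 6.57 and 6.21 (passage 6) in Control. The Control arrays of both passages lay together, and the passage 6 Pre_only arrays stood far above the passage 8 one. IFI27 rose by 2.27 ± 0.41 (adjusted p = 6.59e-05). IFI44 rose by 1.70 ± 0.21 (adjusted p = 1.28e-07). The brighter probe of its neighbour IFI44L was undetected in Control and at least 2.47-fold higher (adjusted p = 1.28e-07). A second IFI44L probe, detected on 22 of the 23 arrays, gave only 0.39 ± 0.13, so the bound does not hold for both probes. In Pre_IL13 against IL13 the brighter probe gave 1.19 ± 0.18 and the second -0.001 ± 0.12. IFI6, an inhibitor of apoptosis and of flavivirus replication, rose by 1.54 ± 0.22 (adjusted p = 3.14e-06), and its second probe by 2.37. XAF1, which promotes apoptosis, rose by 0.92 ± 0.17, but by 0.40 and without a call on a second probe. IFI35 (0.84 ± 0.12) and the secreted glycoprotein LGALS3BP (0.56 ± 0.13) rose as well. Both PARP genes, whose products ADP-ribosylate proteins, rose: PARP9 by 0.66 ± 0.18 and PARP14 by 0.64 ± 0.14. A second PARP9 probe gave 0.40 ± 0.15 and was not called.

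**Figure D2:**
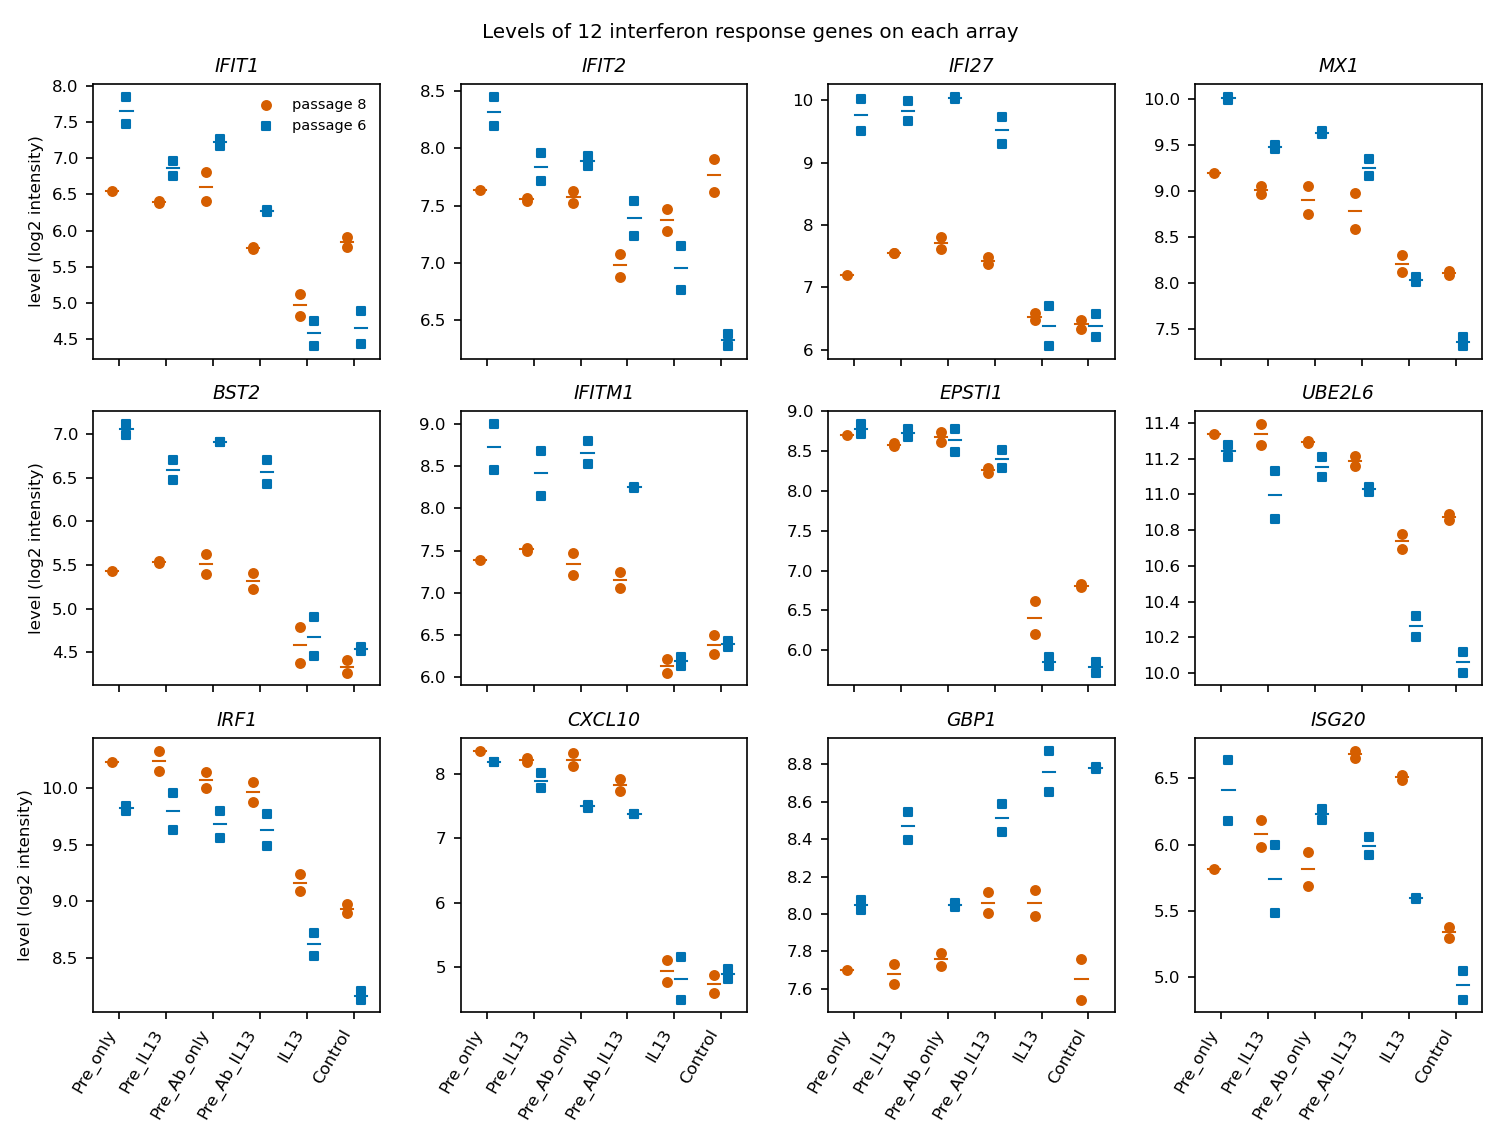
Level (log2 normalised intensity) of 12 of the genes on every array, by group, with passage 8 as circles and passage 6 as squares and the passage mean as a line. After pretreatment IFI27, BST2 and IFITM1 are lower in passage 8 than in passage 6, IFIT1, IFIT2 and EPSTI1 are higher in passage 8 in Control, and CXCL10 and IRF1 are high on all pretreated arrays.

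The same question was put to cells that also received IL-13, by comparing Pre_IL13 with IL13, groups that hold other arrays than the comparison above. Of the 39 genes 27 rose, beside 14% of all genes, and 3 fell, beside 13.8%. Their median change was 0.66, against 0.00 for all genes. The arrays did not overlap for 26 genes that were higher and 2 that were lower, beside 11% and 10.9% of all genes. CXCL10 rose by 3.17 ± 0.15 (adjusted p = 5.63e-17), EPSTI1 by 2.52 ± 0.17 (adjusted p = 4.05e-13) and IFI27 by 2.23 ± 0.38 (adjusted p = 2.49e-05). Here too the size for CXCL10 may not be exact. ISG15 rose here, by 0.49 ± 0.14 (adjusted p = 0.00742), and by 0.25 to 0.75 under the alternatives. Its call ended with A and B averaged, in passage 8 alone and without both IL13 arrays of passage 6. IFIT2 gave 0.53 ± 0.25 (adjusted p = 0.11), PARP9 0.28 ± 0.16 (adjusted p = 0.223) and IRF7 0.28 ± 0.12 (adjusted p = 0.0855). ISG20, which rose with pretreatment alone, gave -0.14 ± 0.20 (adjusted p = 0.666). The genes that fell were IFITM2 (-0.31 ± 0.08, adjusted p = 0.00287), GBP1 (-0.34 ± 0.13, adjusted p = 0.0464) and IRF9 (-0.29 ± 0.10, adjusted p = 0.0255). The IRF9 call ended without IL13 P6-A, IL13 P8-B or Pre_IL13 P8-B. The GBP1 call ended without any 1 of 7 arrays: IL13 P6-B and P8-A, Pre_IL13 P6-A, P8-A and P8-B, and Pre_Ab_IL13 P6-B and P8-A.

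Upstream of these genes lie the interferons, their receptors and the sensors that start the response. Of 21 interferon genes 6 had an annotated probe and 3 were tested. IFNE fell by 0.47 ± 0.13 (adjusted p = 0.00817), while IFNW1 (0.11 ± 0.14) and IFNA21 (0.00 ± 0.13) were not called. IFNE had levels of 4.76 (passage 8), 4.26 and 4.43 (passage 6) in Pre_only, against 5.31 and 4.95 (passage 8) and 4.79 and 4.95 (passage 6) in Control. IFNW1 reached at most 4.98 and IFNA21 4.95 on any array. BST2 went undetected in Control at 4.26 to 4.56, so the 3 interferon genes lay near the floor and their changes have no exact size. IFNB1 had no annotated probe and was not analysed here. In Pre_only against Control 12% of all genes rose and 12.8% fell. Of the 8 tested receptor chains and kinases 4 rose and none fell there. These were both chains of the type I receptor, IFNAR2 (0.71 ± 0.12, adjusted p = 2.86e-05) and IFNAR1 (0.61 ± 0.12, adjusted p = 0.00023), with IFNGR1 of the interferon-gamma receptor (0.64 ± 0.11, adjusted p = 5.7e-05) and IL10RB of the type III receptor (0.56 ± 0.10, adjusted p = 5.51e-05). JAK1, JAK2, TYK2 and IFNGR2 were not called. Of 10 genes of nucleic acid sensing 3 rose and 2 fell, counts too small to set apart from those shares of all genes. The RIG-I-like receptor DHX58 (0.63 ± 0.17, adjusted p = 0.00656) and TLR3 (0.61 ± 0.15, adjusted p = 0.00198), which senses double-stranded RNA, rose. The DHX58 change was 0.06 in passage 8, where its arrays overlapped, and 1.08 in passage 6. TICAM1, the adaptor of TLR3, fell by 0.83 ± 0.13 (adjusted p = 5.67e-06), and STING1, the adaptor of DNA sensing, fell by 0.73 ± 0.10 (adjusted p = 8.22e-07). None of 4 other IRF genes was called.

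Of 28 further effectors known to respond to interferon, 9 rose and none fell, beside 12% and 12.8% of all genes. Their median change was 0.22. TNFSF10, which encodes the death ligand TRAIL, was undetected in Control and at least 2.86-fold higher in Pre_only (adjusted p = 7.69e-06). DDX60 (1.09 ± 0.14, adjusted p = 2.13e-07), PARP10 (0.77 ± 0.16, adjusted p = 0.00043) and TRIM5 (0.72 ± 0.16, adjusted p = 0.0012) also rose. Of 7 genes that answer mainly to interferon-gamma 2 rose, WARS1 (0.53 ± 0.12, adjusted p = 0.00102) and GBP4, undetected in Control and at least 1.18-fold higher (adjusted p = 0.00346). The other 5 were not called, and 2 of 7 is too small a count to set apart from the 12% of all genes. SOCS1, which inhibits JAK kinases after interferon and after IL-13, had levels of 7.49 (passage 8), 7.42 and 7.27 (passage 6) in Pre_only, against 6.12 and 6.21 (passage 8) and 6.20 and 6.15 (passage 6) in Control. It rose by 1.23 ± 0.11 (adjusted p = 9.36e-11), with no overlap between the groups.

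The passages were then described apart, because several of these genes differed between them. In Control cells, 13 of the 39 genes were higher and 1 lower in passage 8 than in passage 6, beside 3.45% and 3.66% of all genes. The largest differences were in the IFIT family: IFIT2 was 1.44 ± 0.16 higher in passage 8 (adjusted p = 7.7e-07), IFIT3 1.31 ± 0.23 (adjusted p = 0.000459) and IFIT1 1.18 ± 0.18 (adjusted p = 7.06e-05). EPSTI1 (1.03 ± 0.15), IFI44 (0.96 ± 0.17), UBE2L6 (0.81 ± 0.11), IRF1 (0.77 ± 0.14) and MX1 (0.74 ± 0.14) were higher too. GBP1 was lower by 1.13 ± 0.13 (adjusted p = 1.42e-06). Of the 8 arrays without pretreatment 6 detected IFIT1, so the size of its difference may not be exact. The calls of HERC6 and IFIH1 ended without Control P6-A or P8-A, that of XAF1 without Control P6-B, and that of PARP9 without Control P6-B or P8-B. With median scaling in place of quantile normalisation 7 genes were called.

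The change with pretreatment was lower, that is less positive or more negative, in passage 8 than in passage 6 for 36 of the 39 genes. Of all genes 49.9% had the higher change in passage 8. The median change of the 39 was 0.52 in passage 8 and 1.02 in passage 6. The difference between the passages itself passed the test for 15 genes, all of them with the smaller change in passage 8, where 0.746% of all genes did so and 0.693% went the other way. IFI27 changed by 0.79 in passage 8 and by 3.37 in passage 6, a difference of -2.58 ± 0.30 (adjusted p = 3.97e-06). IFIT1 changed by 0.70 in passage 8 and 2.998 in passage 6, a difference of -2.30 ± 0.29 (adjusted p = 8.9e-06). For IFIT2 the values were -0.13 and 2.00, and the difference was -2.12 ± 0.25 (adjusted p = 4.9e-06). The others were IFIT3, MX1, IFI6, IFI44L, IFI44, BST2, HERC6, IFITM1, IFIH1, EPSTI1, OAS2 and UBE2L6, with differences between -1.81 and -0.72. These values rest on the single Pre_only array of passage 8, which is assumed to vary like the other groups, whose arrays supply the spread behind these tests. No Control array detected BST2, OAS2 or the IFI44L probe used, so the sizes of their changes and differences are not exact. Of the 8 arrays without pretreatment 6 detected IFIT1 and 7 detected HERC6, so their sizes may not be exact either. With median scaling 5 of the 15 calls were made, those of IFI27, IFIT1, IFIT2, IFIT3 and IFI44L. Leaving out 1 array ended the calls of EPSTI1 (Control P6-A), HERC6 (Control P6-A or P8-A), IFITM1 (Pre_only P6-B or Control P8-B), OAS2 (Control P6-B or P8-B or Pre_only P6-B) and UBE2L6 (any Control array or Pre_only P6-B).

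**Figure D3:**
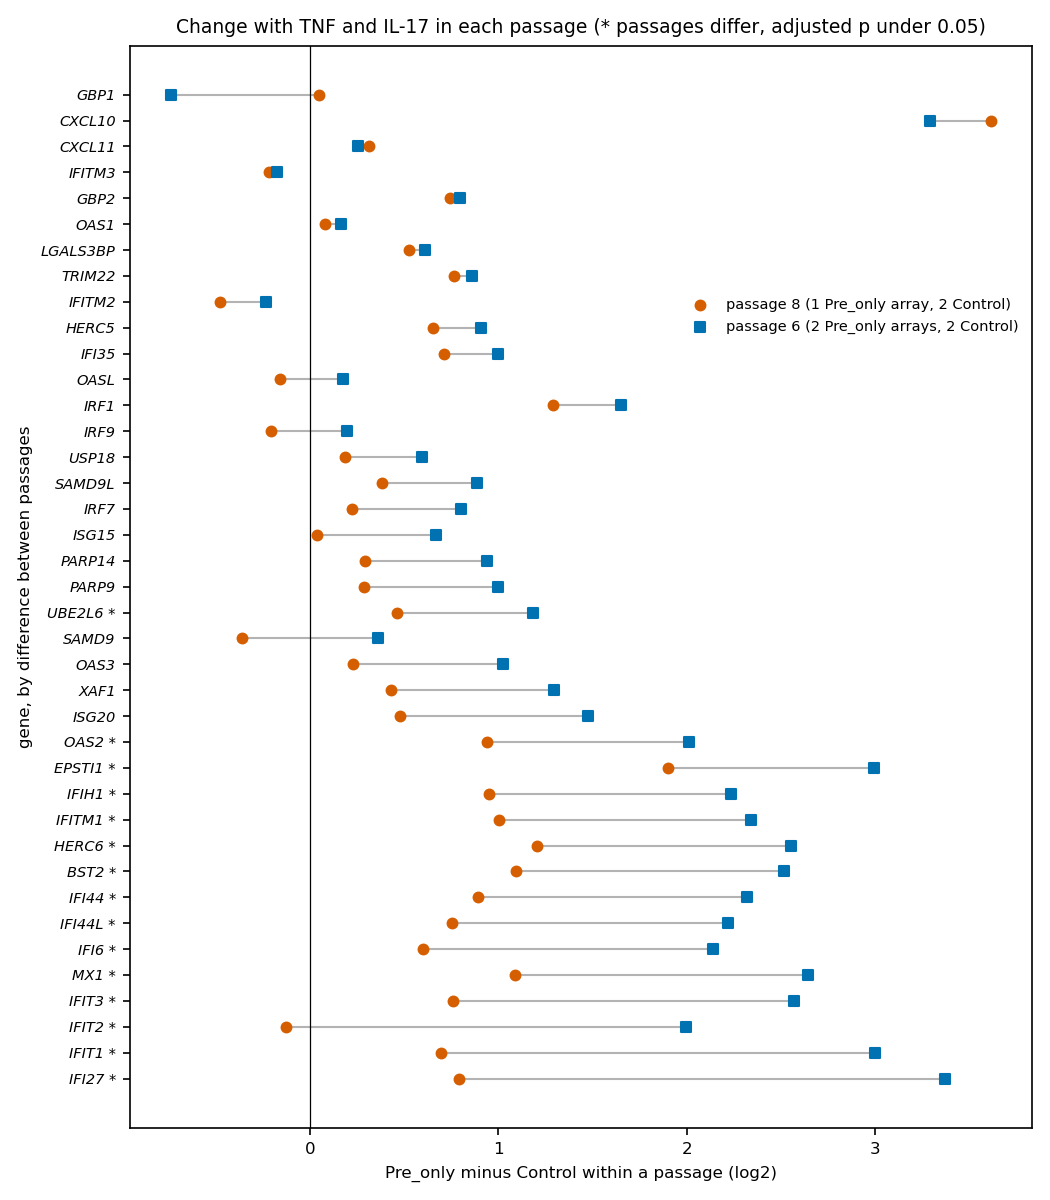
Change in Pre_only against Control within passage 8 (circles) and within passage 6 (squares) on the log2 scale for the 39 genes, ordered by the difference between the passages. The 15 starred genes, whose 2 changes differed at an adjusted p under 0.05, have the circle left of the square, and CXCL10, CXCL11 and GBP1 have it on the right.

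The same difference taken over both IL-13 states, with Pre_only and Pre_IL13 against Control and IL13, uses 3 pretreated arrays of passage 8. It was called for 21 genes, all with the smaller change in passage 8, beside 1.84% of all genes, while 2.15% went the other way. IFI27 (-2.50 ± 0.20, adjusted p = 3.67e-09), IFIT3 (-1.62 ± 0.25, adjusted p = 9.07e-05), IFIT1 (-1.58 ± 0.19, adjusted p = 3.75e-06) and IFIT2 (-1.41 ± 0.17, adjusted p = 3.15e-06) again headed the list. In Pre_IL13 against IL13 alone, which uses no Pre_only array, the difference was called for 6 genes, all lower, beside 0.908% of all genes, and 1.3% of all genes were higher. These were IFI27 (-2.42 ± 0.27), IFIT3 (-1.42 ± 0.33), PARP9 (-0.997 ± 0.21), BST2 (-0.96 ± 0.24), OAS2 and OAS3. No IL13 array detected OAS2 or OAS3 and 2 of 4 detected BST2, and OAS3 was detected on 2 of 4 Pre_IL13 arrays, so the sizes of these differences are not exact. The count of 6 was 2 without Pre_IL13 P8-A and 12 without IL13 P6-B. For IFIT1 this difference was -0.85 ± 0.26 (adjusted p = 0.0804), and for IFIT2 -0.70 ± 0.23 (adjusted p = 0.106).

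The passage difference was also measured in the 4 pretreated groups together, with 7 arrays of passage 8 and 8 of passage 6, in a comparison added after the data had been seen. There 20 genes were lower and 3 higher in passage 8, beside 9.28% and 11.8% of all genes, with a median of -0.22 against 0.01 for all genes. Set beside the Control difference, the genes fell into several patterns. The Control difference rests on fewer arrays, so a call in 1 setting and none in the other does not show that the settings differed. In the first, 13 genes were lower in passage 8 after pretreatment and not called different in Control. IFI27 had levels of 7.20 to 7.80 on the 7 pretreated arrays of passage 8 and 9.30 to 10.05 on the 8 of passage 6, while the 8 arrays without pretreatment ran from 6.06 to 6.70. The pretreated arrays of the 2 passages did not overlap with each other or with the unpretreated arrays. The difference between passages was -2.31 ± 0.10 (adjusted p = 2.23e-15), against 0.02 ± 0.19 in Control. BST2 (-1.33 ± 0.09, adjusted p = 3.89e-11), IFITM1 (-1.16 ± 0.09, adjusted p = 1e-09), IFI44L (-0.86 ± 0.09), OAS2 (-0.76 ± 0.08) and IFI6 (-0.75 ± 0.09) showed the same pattern. ISG15 was lower by 0.54 ± 0.08 (adjusted p = 1.72e-05), and IFITM3 by 0.46 ± 0.07 (adjusted p = 1.15e-05). Of the 13, IFI35, IFITM2, IFITM3, ISG15, LGALS3BP, OAS3 and TRIM22 were not called in the test of the passage difference in Pre_only against Control. In Control, IFITM3 had levels of 12.00 and 12.25 in passage 8 and 12.40 and 12.24 in passage 6.

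In the second pattern, 5 genes were higher in passage 8 in Control and not called different after pretreatment. EPSTI1 had levels of 8.23 to 8.74 on the pretreated arrays of passage 8 and 8.28 to 8.84 on those of passage 6. Its levels were 6.83 and 6.79 in passage 8 Control cells and 5.72 and 5.85 in passage 6 Control cells. IFI44, IFIH1, PARP14 and XAF1 were the others. PARP14 and XAF1, and PARP9 of the next pattern, were not called in the test of the passage difference in Pre_only against Control. In the third, 6 genes were higher in passage 8 in Control and lower in passage 8 after pretreatment: IFIT1, IFIT2, IFIT3, MX1, HERC6 and PARP9. For IFIT1 the difference was -0.68 ± 0.10 after pretreatment (adjusted p = 1.02e-05) and 1.18 in Control. For MX1 it was -0.62 ± 0.07 (adjusted p = 4.84e-07) and 0.74. A few genes went another way. IRF1 was higher in passage 8 both after pretreatment (0.39 ± 0.07, adjusted p = 0.000286) and in Control, as was UBE2L6. CXCL10 was 0.42 ± 0.09 higher in passage 8 after pretreatment (adjusted p = 0.00197) and not called in Control. GBP1 was lower in both settings, by 0.47 ± 0.07 after pretreatment. The remaining 11 genes, ISG20 and GBP2 among them, were called in neither. Leaving out 1 array at a time gave 18 to 25 calls in the pretreated groups, and median scaling gave 14.

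**Figure D4:**
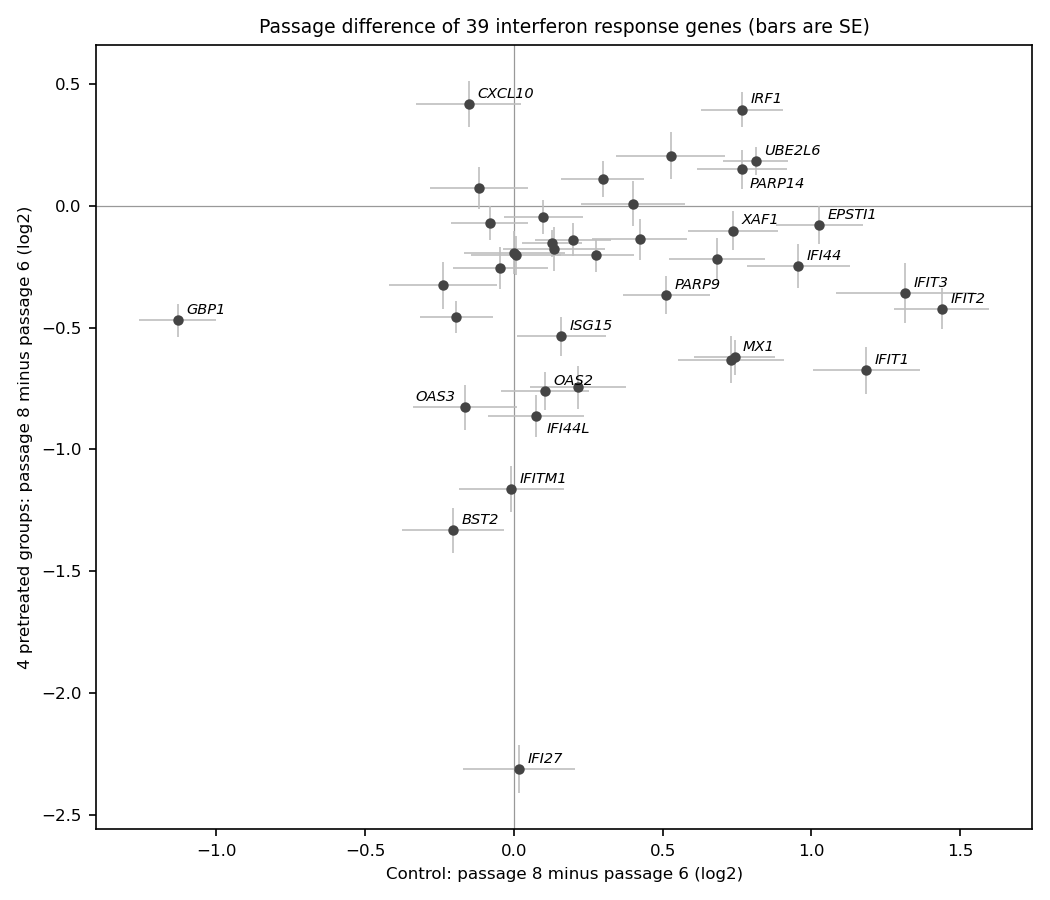
Difference between passage 8 and passage 6 for the 39 genes on the log2 scale, in Control (horizontal axis) and in the 4 pretreated groups (vertical axis), with standard errors. IFI27, BST2 and IFITM1 lie below 0 on the vertical axis and near 0 on the horizontal one, EPSTI1 lies to the right near 0, IFIT1 and MX1 lie to the right and below, and IRF1 and CXCL10 lie above 0 on the vertical axis.

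ISRE letters were counted by this behaviour as a description. Of the 15 genes whose pretreatment change differed between passages 13 had a promoter in the table, and 11 of these held ISRE letters and 3 the NF-kB motif. Of the 24 others 18 had a promoter, and 11 held ISRE letters and 6 the NF-kB motif. Of the genes shown above, which were picked for their behaviour, BST2 is among the 15 and CXCL10 is not, and both hold an ISRE and an NF-kB match. Outside the 39, the levels of TNFSF10 were 4.73 (passage 8), 7.02 and 6.70 (passage 6) in Pre_only, against 4.21 and 4.32 (passage 8) and 4.14 and 4.18 (passage 6) in Control. No Control array detected it, so its change has no exact size in either passage. SOCS1 gave 0.15 ± 0.21 in the test of the passage difference (adjusted p = 0.917). Each of these values compares passages that lay on separate beadchips. The fibroblast markers differed between passages as well, 3 of 10 being lower and 1 higher in passage 8 Control cells, beside 3.66% and 3.45% of all genes. Their part in these differences was not tested.

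IL-13 was tested without pretreatment in IL13 against Control. ISG20 was the single gene called by limma, as higher, beside 1.15% of all genes, and none was called lower, beside 0.716%. At an unadjusted p under 0.05 there were 2 of the 39, ISG20 and IRF1, beside 11.8% of all genes. ISG20 had levels of 6.53 and 6.49 (passage 8) and 5.59 and 5.60 (passage 6) in IL13, against 5.29 and 5.38 (passage 8) and 5.05 and 4.83 (passage 6) in Control. All IL13 arrays were above all Control arrays, with the wider gap in passage 8. The change was 0.91 ± 0.20 (adjusted p = 0.00853), and the call ended with median scaling, when A and B were averaged and in passage 6 alone. IRF1 gave 0.34 ± 0.10 (adjusted p = 0.0907). In pretreated cells Pre_IL13 against Pre_only gave -0.35 ± 0.22 for ISG20, which was not called, and the difference from the response without pretreatment was -1.26 ± 0.30 (adjusted p = 0.0572). No gene of the 39 passed that test of the difference by limma, beside 0.0462% of all genes higher and 0.254% lower in it. An unadjusted p under 0.05 was found for 4 of the 39, beside 7.97% of all genes. SOCS1 rose by 1.15 ± 0.10 with IL-13 alone (adjusted p = 1.70e-09), gave 0.16 ± 0.11 in pretreated cells (adjusted p = 0.83), and the difference was -0.997 ± 0.14 (adjusted p = 0.000342).

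IL-13 was added to pretreated cells both without and with the antibody. In Pre_IL13 against Pre_only none of the 39 was called by limma, beside 0.0308% of all genes higher and 0% lower, while 4 had an unadjusted p under 0.05, as did 6.41% of all genes. These were IFIT1 (-0.64 ± 0.28), MX1 (-0.45 ± 0.21), IFIH1 (-0.42 ± 0.19) and HERC5 (-0.24 ± 0.10). The median of the 39 was -0.17, against 0.00 for all genes, and 30 were below 0, while 50.9% of all genes were above 0. With the antibody, in Pre_Ab_IL13 against Pre_Ab_only, 3 genes fell and none rose, beside 1.09% and 1.15% of all genes. The median was -0.19, with 33 of 39 below 0, while 50% of all genes were above 0. For 2 genes all Pre_Ab_IL13 arrays lay below all Pre_Ab_only arrays, beside 2.89% of all genes, and for none above, beside 3.51%. HERC5 had levels of 4.65 and 4.52 (passage 8) and 4.65 and 4.63 (passage 6) in Pre_Ab_IL13, against 4.97 and 5.08 (passage 8) and 5.07 and 4.997 (passage 6) in Pre_Ab_only. The groups did not overlap. HERC5 fell by 0.42 ± 0.09 (adjusted p = 0.00542), although it was detected on only 2 of the 4 Pre_Ab_IL13 arrays. IFI44L fell by 0.74 ± 0.18 (adjusted p = 0.02) and TRIM22 by 0.48 ± 0.12 (adjusted p = 0.031). The IFI44L call ended without Pre_Ab_IL13 P6-B or P8-A or Pre_Ab_only P6-A or P6-B, and a second IFI44L probe gave -0.06 ± 0.12. The TRIM22 call ended without Pre_Ab_IL13 P6-A or P8-A or any Pre_Ab_only array.

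IFIT1 was the lowest of the genes that were not called there. Its levels were 5.75 and 5.78 (passage 8) and 6.29 and 6.26 (passage 6) in Pre_Ab_IL13, against 6.41 and 6.80 (passage 8) and 7.27 and 7.17 (passage 6) in Pre_Ab_only. Every Pre_Ab_IL13 array was below every Pre_Ab_only array, and the change was -0.90 ± 0.26 (adjusted p = 0.067). ISG15 gave -0.48 ± 0.14 (adjusted p = 0.067). None of the 39 was called for a difference between passages in the response to IL-13, either with the antibody or without pretreatment, by limma. Of all genes 0.077% were called higher and 0% lower with the antibody, and 0% higher and 0.0231% lower without pretreatment. At an unadjusted p under 0.05 there were 3 of the 39 with the antibody, beside 4.06% of all genes, and 9 without pretreatment, beside 7.9%.

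**Figure D5:**
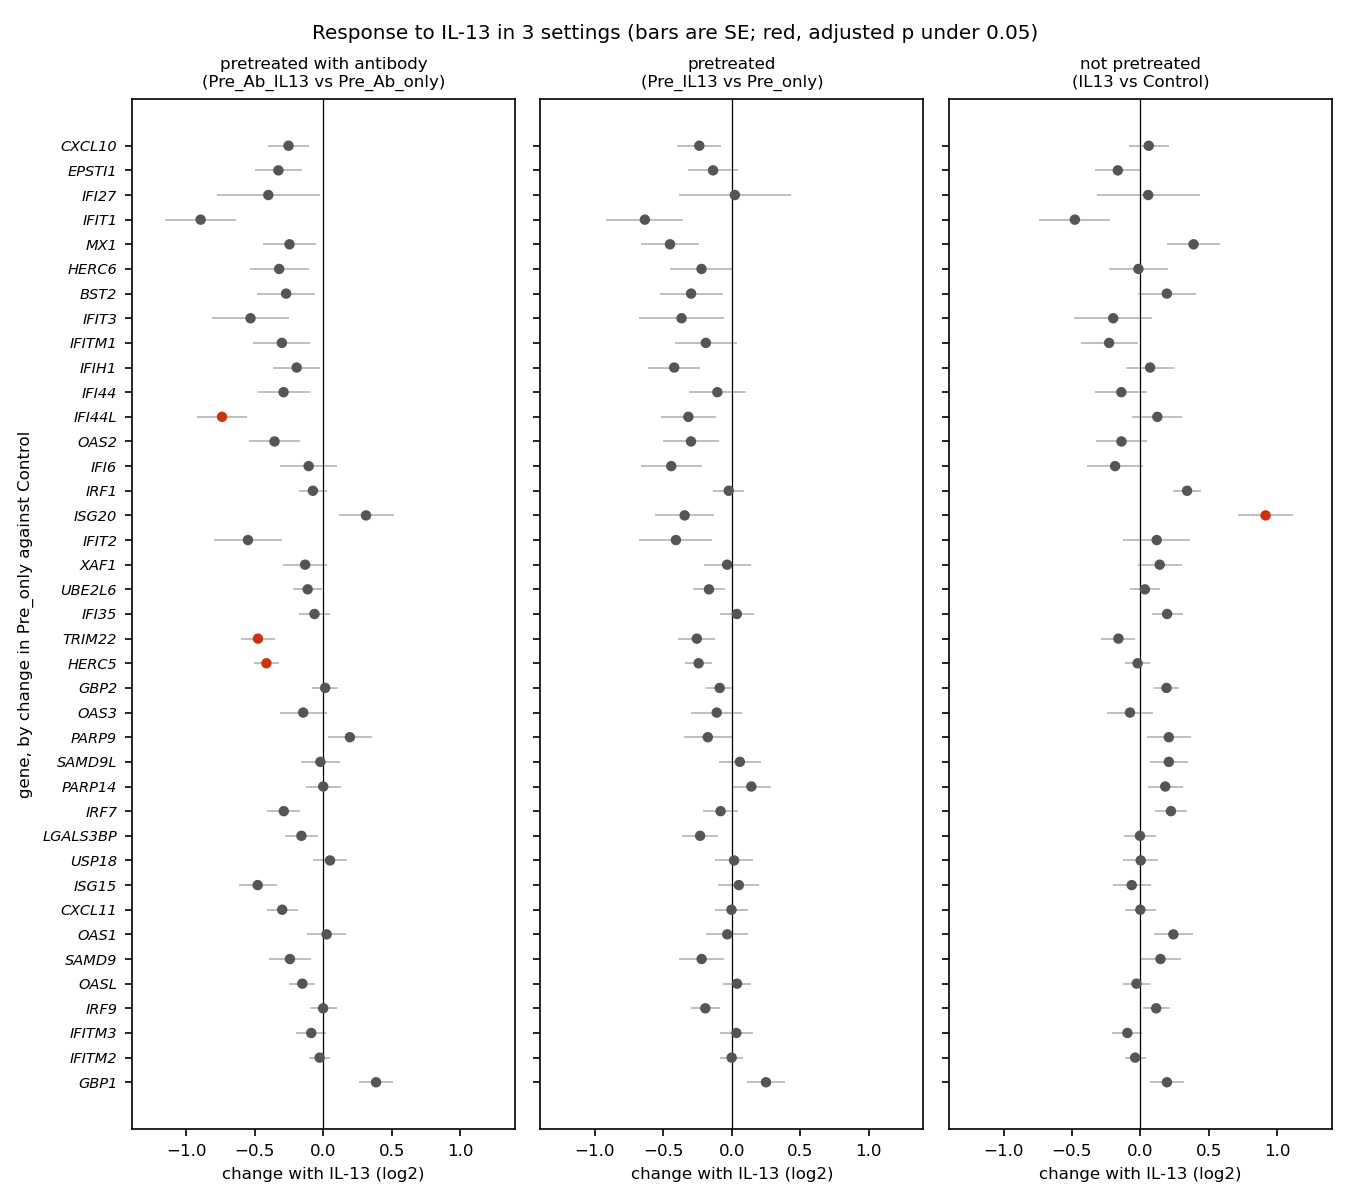
Change with IL-13 on the log2 scale, with standard errors, for the 39 genes in 3 settings: pretreated cells with antibody (left), pretreated cells (middle) and cells without pretreatment (right). HERC5, IFI44L and TRIM22 on the left and ISG20 on the right are red for an adjusted p under 0.05, and most points of the left and middle panels lie left of 0.

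The antibody to IL-13Ra2 was also compared on its own. In Pre_Ab_only against Pre_only none of the 39 was called by limma, beside 0% of all genes, and 3 had an unadjusted p under 0.05, as did 5.07% of all genes: IFI6 (-0.48 ± 0.22), CXCL10 (-0.43 ± 0.16) and MX1 (-0.43 ± 0.21). In Pre_Ab_IL13 against Pre_IL13, which sets pretreated cells given IL-13 with the antibody against those without it, none was called either, beside 0.677% of all genes higher and 0.246% lower. At an unadjusted p under 0.05 there were 11 of the 39, beside 8.1% of all genes. IFIT1 (-0.61 ± 0.26), IFI44L (-0.56 ± 0.18), IFIT2 (-0.51 ± 0.25) and CXCL10 (-0.45 ± 0.15) were the lowest of these, and ISG20 (0.42 ± 0.20) was the highest. The Pre_Ab_IL13 arrays lay below all Pre_IL13 arrays for 4 genes, IFIT1, IFIT3, HERC5 and EPSTI1, beside 2.02% of all genes, and above them for none, beside 2.69%. The 4 pretreated groups enter several of these comparisons, which therefore share arrays.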

How the data were processed

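RNA of the 23 cultures was hybridised to Illumina bead arrays of 1 colour. The deposited scanner table gives, per probe and array, a mean intensity without normalisation, a detection p-value, the count of beads and a bead standard error, a signal spread, all exported by the authors with GenomeStudio 2011.1, per the submitters' processing notes. A second deposited table holds log2 values, whose equal percentiles across arrays show quantile normalisation by the authors, and it served as an alternative.

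Of 47323 probes, 14 with missing values were left out. Intensities were corrected and quantile normalised with neqc (limma 3.58.1, R 4.3.3, offset 16, background from the detection p-values). The filter kept 24096 probes that 3 or more arrays detected (p under 0.05), and the brightest annotated probe stood for each gene (12994 genes, 6555 kept probes having no single symbol). Symbols came from the platform annotation (21309 probes matched RefSeq by gene ID). A linear model with group and passage (16 residual degrees of freedom) and a model with a mean per group and passage (11) were fitted with limma, with Benjamini-Hochberg adjustment over all genes at 0.05. The scripts were tested on simulated data. "At least" folds use the lowest detected signal as the bound for a group that no array detected.

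Members and gene lists were chosen with earlier results of these data known, and 4 comparisons by passage were added after the data had been seen. Named genes are the members, up to 4 called genes of largest change in each other list with the same sign in both passages, and IFNB1, IFNAR1, IFNAR2, SOCS1 and IL13RA2. Other genes named without a call were chosen after their values were seen. Numbers shared by A and B were checked for pairing: residuals of same-lettered arrays had a median correlation of 0.0127 in passage 6 and -0.00226 in passage 8, so no block was used in the fits given. The number of arrays limits the precision. Alternatives covered background correction, scaling, detection filter, probes, passage term, replicate block, averaging, weights, single passages and leaving out arrays.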

Additional observations from a re-analysis of the deposited data

Results flagged for a closer look

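In 6 of 195 sets of 4 arrays, 1 array stood far from the other 3 of its group. Chance gives about 1 in 20 where all arrays of a set are alike. Each set here mixes both passages, so that rate may not hold, and a passage difference can hide a far array. IFI44 was low on IL13 P6-B (level 4.97, nearest 5.60, gap over range 0.861), and USP18 was low on IL13 P6-A (4.25, nearest 4.63, gap over range 0.924). OAS3 was high on IL13 P8-A (4.42, nearest 4.28, gap over range 0.917), in a group where no array detected it. GBP2 was low on Pre_IL13 P8-A (9.58, nearest 9.73, gap over range 0.945), HERC5 was low on Pre_Ab_IL13 P8-B (4.52, nearest 4.63, gap over range 0.883), and CXCL11 was low on Pre_Ab_only P6-A (4.81, nearest 4.97, gap over range 0.855).

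The pretreatment change differed between passages for 15 genes, given as passage 8 minus passage 6 on the log2 scale. The values were -2.58 for IFI27, -2.3 for IFIT1, -2.12 for IFIT2, -1.81 for IFIT3, -1.56 for MX1, -1.54 for IFI6, -1.47 for IFI44L, -1.43 for IFI44, -1.42 for BST2, -1.35 for HERC6, -1.34 for IFITM1, -1.28 for IFIH1, -1.1 for EPSTI1, -1.07 for OAS2 and -0.72 for UBE2L6. Each rests on 1 Pre_only array of passage 8, with the spread taken from the other groups. Those of BST2, IFI44L and OAS2 are not exact sizes because no Control array detected the probes used for them. Those of IFIT1 and HERC6 may not be exact, as 6 and 7 of the 8 arrays without pretreatment detected them.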

How the results depend on the processing

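For the 32 genes called in Pre_only against Control, 1182 of 1184 values under the alternatives kept their sign and 1155 kept the call. Most of these alternatives left out 1 array, often of neither group, and so stay close to the main fit. The totals therefore say little about the alternatives that differ more. The exceptions in sign were IFIT2 (-0.13) and GBP1 (0.051) in passage 8 alone. Among genes not called, IRF9 was -0.12 with median scaling, -0.0045 with A and B averaged, -0.020 with array weights, -0.21 in passage 8 alone and -0.054 to 0.081 leaving out 1 array, OASL was -0.16 in passage 8 alone (-0.024 to 0.13 leaving out 1 array) and SAMD9 -0.36 (-0.022 to 0.28). In passage 8 alone, with 1 Pre_only array, not all of the 32 calls were kept. There IRF7 changed by 0.23, PARP14 by 0.29, PARP9 by 0.29 and XAF1 by 0.43, against 0.58, 0.64, 0.66 and 0.92 over both passages. ISG20, OAS3, SAMD9L and USP18 were also close there. ISG20 had a level of 5.82 on Pre_only P8-B, against 5.29 and 5.38 in passage 8 Control. For OAS3 the levels were 4.53 against 4.20 and 4.41, for SAMD9L 8.04 against 7.68 and 7.64, and for USP18 4.80 against 4.72 and 4.52. Counts of called genes moved as follows, and the cause was not tested. Under alternatives other than leaving out 1 array, Pre_IL13 against IL13 (30) gave 23 to 31. The passage difference over both IL-13 states (21) gave 14 to 21 under them. IL13 against Control (1 gene) gave 0 with median scaling or A and B averaged and 2 in passage 8 alone. Pre_Ab_IL13 against Pre_Ab_only (3) gave 1 without a passage term, 0 with A and B averaged, 7 with array weights, and 5 in passage 8 alone or without both IL13 arrays of passage 6. Pre_Ab_IL13 against Pre_IL13 (0) gave 1 with array weights and 3 in passage 8 alone. The difference in IL-13 response with pretreatment (0) gave 1 with array weights or without both IL13 arrays of passage 6, and 3 in passage 6 alone. Median scaling gave 7 of 14 for passage in Control, 5 of 15 for the passage difference in Pre_only against Control, and 14 of 23 in the pretreated groups; it moved the median of all genes by as much as -0.28 and 0.26. The passage difference in Pre_Ab_IL13 against Pre_Ab_only (0) gave 2 without background correction or in the authors' table and 1 with array weights. That in Pre_IL13 against IL13 (6) gave 10 without background correction, in the authors' table or with detection on all arrays of a group, and 3 with median scaling. Leaving out 1 array gave 30 to 33 genes in Pre_only against Control, 27 to 31 in Pre_IL13 against IL13, 1 in IL13 against Control, 1 to 5 in Pre_Ab_IL13 against Pre_Ab_only, 0 to 1 for the difference in IL-13 response, 12 to 15 for passage in Control, 18 to 25 in the pretreated groups, and 12 to 18, 18 to 22, 0 to 3 and 2 to 12 for the passage differences in Pre_only against Control, over both IL-13 states, in IL13 against Control and in Pre_IL13 against IL13. With a replicate block for A and B, the paired counts were 32, 29, 13 and 17 in Pre_only against Control, Pre_IL13 against IL13, Control by passage and the pretreated groups by passage, and the other counts were unchanged.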

Other observations

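SOCS1, a feedback inhibitor of JAK kinases, rose with IL-13 in pretreated cells given the antibody to IL-13Ra2. Its levels were 8.21 and 8.19 (passage 8) and 8.25 and 8.22 (passage 6) in Pre_Ab_IL13, against 7.50 and 7.54 (passage 8) and 7.36 and 7.27 (passage 6) in Pre_Ab_only. The groups did not overlap, and SOCS1 rose by 0.80 ± 0.10 (adjusted p = 1.8e-06, limma). Against Pre_IL13, which lacked the antibody, Pre_Ab_IL13 was higher by 0.65 ± 0.10 (adjusted p = 0.000104). In the same 2 comparisons no interferon response gene was called higher, beside 1.15% and 0.677% of all genes. PTPN2, another inhibitor of JAK kinases, rose by 0.65 ± 0.15 in Pre_only against Control (adjusted p = 0.00143).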
